A study of Mus musculus with 9 samples.

Results

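The kidneys described here are those labelled reversed-UUO (ClipR-14), in which a vascular clip had obstructed the left ureter for 2 days and had then been off for 12 days. Membership came from the label alone, and they are 3 of the 9 kidneys of the series. They were set against 2 sham-treated kidneys and 1 untreated kidney, across 17741 genes. The remaining 3 kidneys, taken after 2 days of clipping (Clip), are given as a landmark. They also entered the fit's estimate of spread, the filter on dim probes and the choice of probe for each gene. Below, the arms are called release, control and clip, and kidneys keep the replicate numbers of their labels.

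All 9 mice were male, 10 weeks old per the labels and of mixed background. All, controls included, carried the ISAM genotype (Epo–/–::3.3K-Epo3'-Tg458), which lacks the endogenous erythropoietin gene and carries an Epo transgene, a model of adult anaemia from too little erythropoietin. The release kidneys are therefore anaemic kidneys after obstruction, and the series holds no mouse without the anaemia genotype. The labels give no collection day for the sham and untreated mice and no hour of day for any mouse, so neither the time since surgery nor the hour is known to match between arms. Whole left kidney RNA was measured, so fewer cells of a type and less RNA per cell cannot be told apart. The labelled tissue was checked against kidney-defining genes: Umod of the thick ascending limb read 7.97 ± 0.15 in control and 8.11 ± 0.05 in release, and the proximal tubule phosphate carrier Slc34a1 read 6.98 ± 0.11 and 6.70 ± 0.20 (mean ± SD, n = 3). These levels, like all levels below, are log2 signals relative to the array's 75th percentile, so that 0 is that percentile. Levels of different genes come from different probes and are not set against each other.

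Obstruction of a ureter stretches and injures the tubule epithelium, which leaves its differentiated state, divides, and releases chemokines that draw monocytes and macrophages. Fibroblasts and pericytes of the interstitium turn into matrix-producing cells, and collagens build up between the tubules. After the obstruction is relieved much of this is known to recede, at rates that differ between the epithelium, the inflammatory cells and the matrix. The kidney also runs a circadian clock, in which the activators Arntl (now Bmal1) and Clock drive their own repressors through a short DNA element, the E-box.

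The 75th percentile of the processed signal lay between 320 and 439 on the 9 arrays, and 52.0% to 57.5% of probes were well above background. That share was 53.2% to 54.2% in control and 52.0% to 55.4% in release. Each of the 3 slides carried 1 kidney of each arm; slide 3 held the untreated kidney and was scanned on another date. Control kidneys always lay at array position 1 and release kidneys at position 3 or 4, so position and arm cannot be told apart. Across genes, which are not independent replicates, release kidneys correlated with each other at 0.985 to 0.990 and with control kidneys at 0.977 to 0.986. Probes not well above background on any array, 14964 in number, read 0.22 higher in release by the median, against -0.04 for probes well above background on all arrays. The dimmest signals thus read higher in release. Their part in the rises of dim genes was not tested.

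A total of 259 genes were higher and 66 were lower in release than in control at a Benjamini-Hochberg adjusted p under 0.05, by limma over all 9 kidneys. These are 1.46% and 0.372% of the genes tested, and 1.83% together. Of them, 258 have a gene symbol and 67 only an accession. Of the rises 90 were 2-fold or more, and of the falls 27 were. In all 325 the 3 release kidneys lay on 1 side of the 3 control kidneys, which also fixes the same sign on each slide. The 325 were picked by p from these same kidneys, so this separation is no further support for them. Over all genes the arms did not overlap in 27.2%, equally divided between the directions at 13.6%. The median change over all genes was -0.01. Clipping itself had left 3789 genes higher and 4887 lower, 21.4% and 27.5% of those tested.

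The number of calls depended on single kidneys. The smallest adjusted p was 0.00357, and 3811 genes had an unadjusted p under 0.05. With slide as a block the counts were 751 higher (4.23%) and 412 lower (2.32%). Without release 2 they were 2 (Ccl12 and Nlrp10) and 0, without sham 2 10 and 6, without sham 1 47 and 11, without release 3 37 and 13, and without release 1 112 and 62. Clip kidneys entered these fits only through the estimate of spread, and leaving them out singly also moved the counts. The counts were 59 and 14 without clip 1, 92 and 21 without clip 2, and 170 and 42 without clip 3. With all clip kidneys out, 0 passed. Normexp background correction, which was run on the median spot and background signals in place of the processed signal, left 0 higher and 1 lower, with 1341 genes at an unadjusted p under 0.05. Of the 85 calls that the naming rule or a list picked out, all kept their sign under it and 39 were over 1.5 times smaller, as given beside the genes described below. The lists and values below are therefore given per kidney. Of the rises, 182 had probes well above background on all control and release arrays, 45 had none of the control arrays above it, and 14 had no array of either arm above it.

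**Figure D1:**
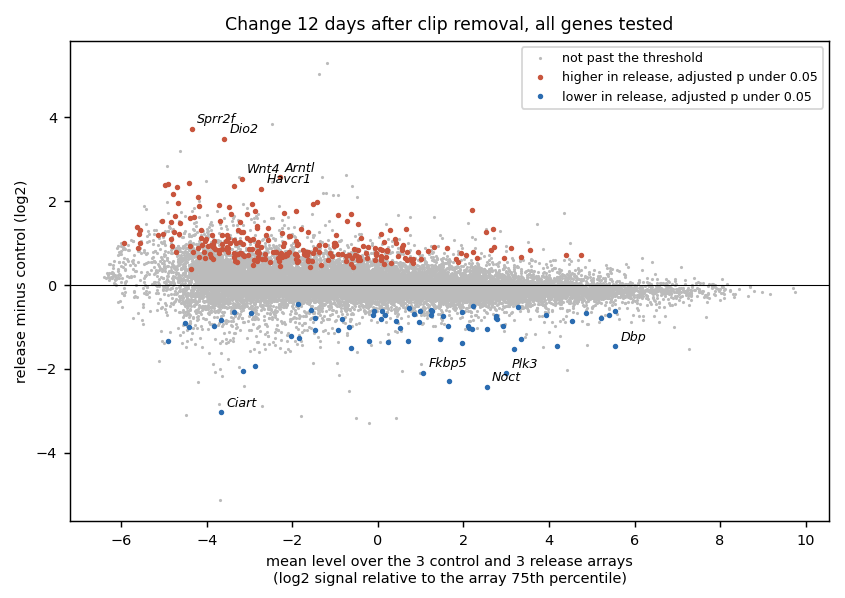
Each dot is a gene: the x axis is its mean log2 level over the 3 control and 3 release kidneys, the y axis the release minus control difference on the log2 scale. The 259 called rises (red) lie mostly at low levels, and the 66 called falls (blue) are spread over the whole range; uncalled genes with larger differences have wide spreads.

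The largest rises with a probe well above background on every release array mixed injury genes, chemokine genes and genes of other kinds. Values are listed in the order sham 1, sham 2, untreated, then release 1, 2 and 3. Sprr2f, a small proline-rich protein of stressed epithelia whose family members are near-identical in sequence, read -6.22, -6.55 and -5.90 in control and -3.16, -3.12 and -1.20 in release. No control array was above background for it, so the rise is given as at least 3.46-fold (adjusted p = 0.0212). Such a bound raises each control reading to the dimmest level still counted as above background on that array, where the reading is lower. The clip kidneys read 3.03, 3.43 and 3.45, and release 3 was the highest of the release kidneys.

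Dio2, the deiodinase that activates thyroid hormone, read -4.98, -6.23 and -4.80 in control and -2.40, -1.65 and -1.48 in release. This was at least 5.42-fold (adjusted p = 0.0315). Wnt4, a Wnt ligand of the developing and injured tubule, read -3.81, -5.03 and -4.53 against -1.90, -2.04 and -1.81, a difference of 2.54 ± 0.32 (SE; adjusted p = 0.0212), with 1 control array above background. Both genes stood in release near their clipped level: release minus clip was -0.37 for Dio2 and 0.16 for Wnt4. Alx1, a homeobox factor, was likewise 1.99 ± 0.30 above control in release and 2.04 above it in clip. The 3 release kidneys read -0.30, -0.66 and -0.30, against -2.25, -2.90 and -2.08. Cav3, the muscle caveolin, rose by 1.95 ± 0.25 with clip at 3.05, and Pglyrp2, a peptidoglycan amidase, by at least 2.19-fold, though a dimmer probe of Pglyrp2 differed by 0.64 only. With normexp these differences shrank, to 1.12 for Dio2, 0.94 for Wnt4, 1.16 for Alx1, 0.83 for Cav3, 0.40 for Pglyrp2 and 0.85 for Sprr2f, all with the same sign and none past the threshold. None of these 6 genes passed without release 2 or without sham 2; without sham 1 Wnt4 and Cav3 did, and without release 3 Sprr2f did.

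**Figure D2:**
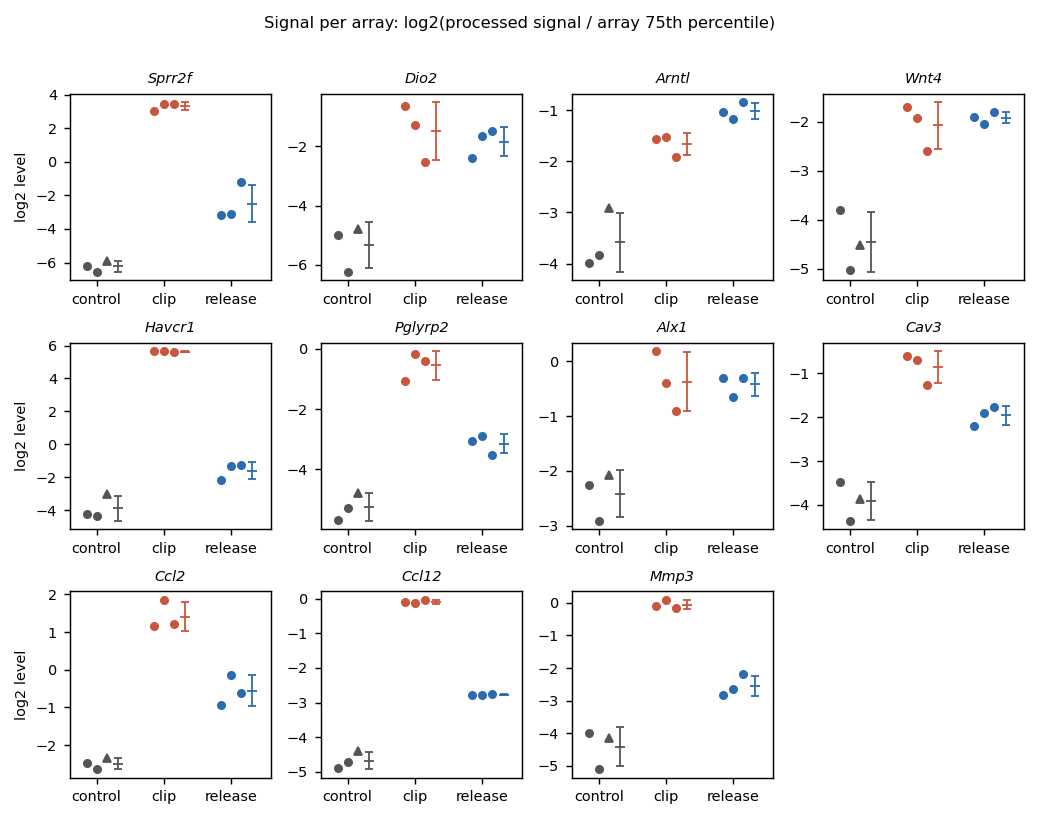
Log2 levels in each kidney of 11 of the 12 largest rises; in the control arm circles are sham and the triangle is the untreated kidney, and the bar beside each arm is its mean ± SD (n = 3). In every panel the release kidneys sit above all control kidneys; Dio2, Wnt4 and Alx1 are near the clip kidneys, while Sprr2f and Havcr1 are far below them.

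Some tubular injury genes were higher in release than in control, and their clip differences were larger. Of 33 list members tested, 10 rose, 0 fell and 23 did not pass; the median difference was 0.70, against -0.01 over all genes and 2.76 for the same list in clip. The share called, 10 of 33, stands beside 1.46% of all genes. Of the 10, Ccl2, C3, Timp1, Krt18 and Cryab are also counted in other lists below. In 23 members the release kidneys all lay above the control kidneys, a pattern that 13.6% of all genes showed. The list median, taken per kidney as a deviation from the control mean, was 0.61, 0.62 and 0.75 in release 1, 2 and 3.

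Havcr1, the injury molecule KIM-1 of the proximal tubule, read -4.25, -4.36 and -3.04 in control and -2.16, -1.33 and -1.26 in release, after 5.61 to 5.66 in clip. The difference was 2.30 ± 0.36 (adjusted p = 0.0333), with 1 control array above background. Timp1, an inhibitor of matrix proteases made by injured tissue, rose by 1.78 ± 0.34 and Krt20, a keratin of injured tubules, by 1.51 ± 0.29, where clip had given 7.30 and 6.06. Vim, a mesenchymal filament protein that tubule cells make when injured, read 0.47, 0.54 and 0.60 in control and 1.15, 1.53 and 1.29 in release, and was well above background on all arrays. Krt18, an epithelial keratin, rose by 0.83 ± 0.15, the kinesin Kif26b by 0.75 ± 0.13 and the small heat shock protein Cryab by 0.71 ± 0.14. Lcn2, the iron-siderophore binding protein NGAL, read -3.36, -4.71 and -3.88 against -2.65, -2.37 and -1.41. Its arms did not overlap, but the difference of 1.84 ± 0.38 missed the threshold (adjusted p = 0.0544; 0.0489 with slide as a block). With normexp the differences were 0.95 for Havcr1, 1.11 for Timp1, 0.54 for Krt20 and 0.37 for Kif26b, and none of the 10 passed. With slide as a block 15 of the 33 members passed, beside 4.23% of all genes called higher in that fit. Of the 10 calls, 0 passed without release 2 or without sham 2, 1 without sham 1 or without release 3, and 2 to 8 with any other kidney left out.

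Rises were also called among chemokine, macrophage and complement genes. Ccl12, a monocyte chemoattractant, had the smallest adjusted p of all genes, 0.00357: it read -4.90, -4.72 and -4.41 in control and -2.77 in each release kidney. No control array was above background, and the rise was at least 2.85-fold; with normexp the difference was 0.56 and did not pass. Ccl2, the related attractant of CCR2-bearing monocytes, read -2.47, -2.64 and -2.35 against -0.95, -0.13 and -0.61, a difference of 1.93 ± 0.24 (adjusted p = 0.0212) after 3.90 in clip. These were the 2 called members among 24 chemokines tested, beside 1.46% of all genes called higher. Release lay above control without overlap in 8 of the 24 (13.6% of all genes), and the list median was 0.40 after 2.08 in clip. With normexp Ccl2 differed by 1.20. Ccl5, a T cell attractant, differed by 1.0 ± 0.22 and did not pass (adjusted p = 0.0614). Ccr2, the receptor of these ligands, was dim. It read -6.34, -6.37 and -5.80 against -3.74, -3.56 and -4.02, at least 1.42-fold (adjusted p = 0.0304), and with normexp its difference was 0.29. Ccl12 passed with each kidney left out in turn. Ccl2 did not pass without sham 1, sham 2, release 2 or release 3.

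Of 33 genes listed for macrophages and monocytes, 10 rose, 0 fell and 23 did not pass, with a median of 0.64 after 1.97 in clip. The 10 calls stand beside 1.46% of all genes called higher. All release kidneys lay above all control kidneys in 23 members, against 13.6% of all genes. C1qb, a chain of the complement starter C1q that macrophages make, read -0.51, -0.43 and -0.71 in control and 0.65, 0.66 and 0.72 in release, a difference of 1.22 ± 0.18. The other calls were Ccr2, Lyz1 (lysozyme; its paralog is near-identical), Cd14 of the endotoxin receptor, the Fc receptor genes Fcgr1 and Fcer1g, C1qc, Ms4a7, Aif1 and the pore protein Mpeg1, with differences from 0.63 ± 0.11 for Fcer1g to 1.46 ± 0.28 for Lyz1 apart from the dim Ccr2. Aif1, the macrophage marker IBA1, read -0.92, -0.96 and -0.77 against -0.08, 0.04 and -0.08. The summed signal of the list ran from 55.7 to 69.0 in control, 82.0 to 94.2 in release and 135 to 159 in clip, in units of the 75th percentile. With slide as a block 13 passed, beside 4.23% of all genes called higher in that fit. Of the 10 calls, 0 passed without release 2 or without sham 2, 1 without sham 1 or without release 3, and 3 to 7 with any other kidney left out.

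Among 18 complement genes 4 rose and 0 fell (1.46% of all genes rose), with a median of 0.61: C3, the central component, C1qb, C1qc and the protease gene C1s1. Of these, C1qb and C1qc are also among the macrophage calls and C3 among the injury calls. C3 read 1.37, 0.72 and 1.80 in control and 2.59, 3.27 and 3.42 in release, 1.80 ± 0.30 higher after 6.36 in clip; its other probe differed by 1.01. C1s1 and the macrophage gene Mpeg1 also had smaller other probes, at 0.42 and 0.48. Il1b, an inflammatory cytokine, read -1.97, -1.88 and -1.50 against 0.40, -0.30 and -0.41, 1.68 ± 0.27 higher, and its clip difference was 0.88. Tnfaip2, a TNF-induced gene, rose by 0.92 ± 0.11 with clip at 0.87. These were the 2 calls among 20 genes of NF-kappaB and the acute phase, beside 1.46% of all genes called higher. Of 17 genes for T and NK cells 1 passed, the T cell receptor chain Cd3g, at least 1.55-fold. With kidneys left out Cd3g passed only without the untreated kidney, and with normexp it differed by 0.17. All 17 differences were positive, and in 8 members release lay above control without overlap (13.6% of all genes). The list was dim, however, with a summed signal of 2.35 to 4.39 in control. Probes not well above background on any array read 0.22 higher in release by the median, and their part was not tested. None of 27 interferon-stimulated genes passed, while all 27 differences were positive, with a median of 0.46. Release lay above control without overlap in 14 of the 27 (13.6% of all genes). With slide as a block 5 passed, beside 4.23% of all genes called higher in that fit. Dendritic cell and MHC class II genes had a median of 0.49 with 0 of 16 passed, and 8 lay above control without overlap (13.6% of all genes). B cell and neutrophil lists had 0 of 9 and 0 of 6, with 2 and 0 members above control without overlap. Without release 2, sham 1, sham 2 or release 3, 0 of the 4 complement calls passed. Without release 2 or sham 2, 0 of the 2 NF-kappaB calls did.

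Rises were called in all 3 matrix lists, in a minority of their members. Of 18 collagens tested 3 rose and 0 fell, beside 1.46% of all genes that rose; 16 differences were positive, 12 had non-overlapping arms against 13.6% of all genes, and the median was 0.59 after 1.14 in clip. Col3a1, a fibrillar collagen of the interstitium, read 1.95, 1.63 and 2.50 in control and 3.25, 3.09 and 3.77 in release, 1.34 ± 0.25 higher (adjusted p = 0.043), and its other probe differed by 1.32. Col1a1, the main chain of scar collagen, read 1.96, 1.35 and 2.36 against 2.99, 3.02 and 3.46, 1.27 ± 0.25 higher (adjusted p = 0.0488); its other probes differed by 1.34 and 0.99. The third call, Col5a1, rose by 0.69 ± 0.11 on its brightest probe, but a dimmer probe read -0.71, and over the mean of its probes the sign turned to -0.01. The list median was 0.60, 0.56 and 0.56 in release 1, 2 and 3 and between -0.07 and 0.09 in the control kidneys. With slide as a block 9 of the 18 passed, beside 4.23% of all genes called higher in that fit. Of the 3 calls, 0 passed without any single sham or release kidney or without clip 1 or clip 2, 1 without clip 3 and 2 without the untreated kidney.

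Matrix glycoproteins gave 5 calls of 31, all rises (1.46% of all genes), with a median of 0.52 and release above control without overlap in 19 (13.6% of all genes). They were Tnc (tenascin C, 1.37 ± 0.27), the microfibril genes Mfap4 (1.18 ± 0.16) and Mfap2 (0.81 ± 0.15), fibronectin Fn1 (1.0 ± 0.13) and fibrillin Fbn1. Fn1 read -1.45, -1.69 and -1.36 in control and -0.29, -0.71 and -0.50 in release, and its other probe differed by 0.88. Fbn1 rose by 0.83 ± 0.11 on its brightest probe, but its other probe read -1.34, and over the mean of the probes the value was -0.25. With normexp the differences were 0.53 for Tnc, 0.62 for Mfap4, 0.66 for Fn1 and 0.51 for Fbn1. Matrix proteases and their inhibitors gave 4 rises of 20, with 10 members above and 2 below control without overlap: Mmp3 (stromelysin, 1.87 ± 0.29, 1 control array above background), Timp1, Mmp11 (1.03 ± 0.20) and the collagen-cutting cathepsin gene Ctsk (0.63 ± 0.09). With normexp Mmp3 differed by 0.60 and Ctsk by 0.21. Without release 2, sham 1 or sham 2, 0, 0 and 0 of the 5 glycoprotein calls passed and 0, 1 and 0 of the 4 protease calls. Without release 3 the counts were 1 and 0, and without clip 1 they were 4 and 0.

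Genes of interstitial cells and of myofibroblasts gave few calls, and the lists were not tested against each other. Pdgfrb and Pdgfra, the platelet-derived growth factor receptors of pericytes and fibroblasts, were the 2 calls of 21 interstitial genes. Both were higher, as were 1.46% of all genes. Release lay above control without overlap in 12 of the 21 and below it in 1, against 13.6% of all genes in each direction. Pdgfrb read 2.86, 2.77 and 2.39 against 3.37, 3.55 and 3.73, 0.87 ± 0.15 higher, and Pdgfra -0.82, -0.91 and -1.22 against -0.28, -0.09 and -0.03, 0.85 ± 0.14 higher. Release minus clip was -0.02 for Pdgfra and -0.43 for Pdgfrb. The list median was 0.46, above its clip median of 0.31. The myofibroblast and smooth muscle list had 0 of 15 passed and a median of 0.23 after 1.34 in clip: Acta2, smooth muscle actin, read 3.13, 3.0 and 2.72 in control and 3.21, 3.22 and 3.38 in release, a difference of 0.32 ± 0.20 (adjusted p = 0.38) after 2.80 in clip. Tgfb1, the fibrogenic cytokine, differed by 0.24 ± 0.18 and did not pass, and 0 of 27 genes of TGF-beta and activin signalling did. Neither Pdgf receptor passed without release 1, 2 or 3, without sham 1 or 2, or without clip 1 or 2.

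**Figure D3:**
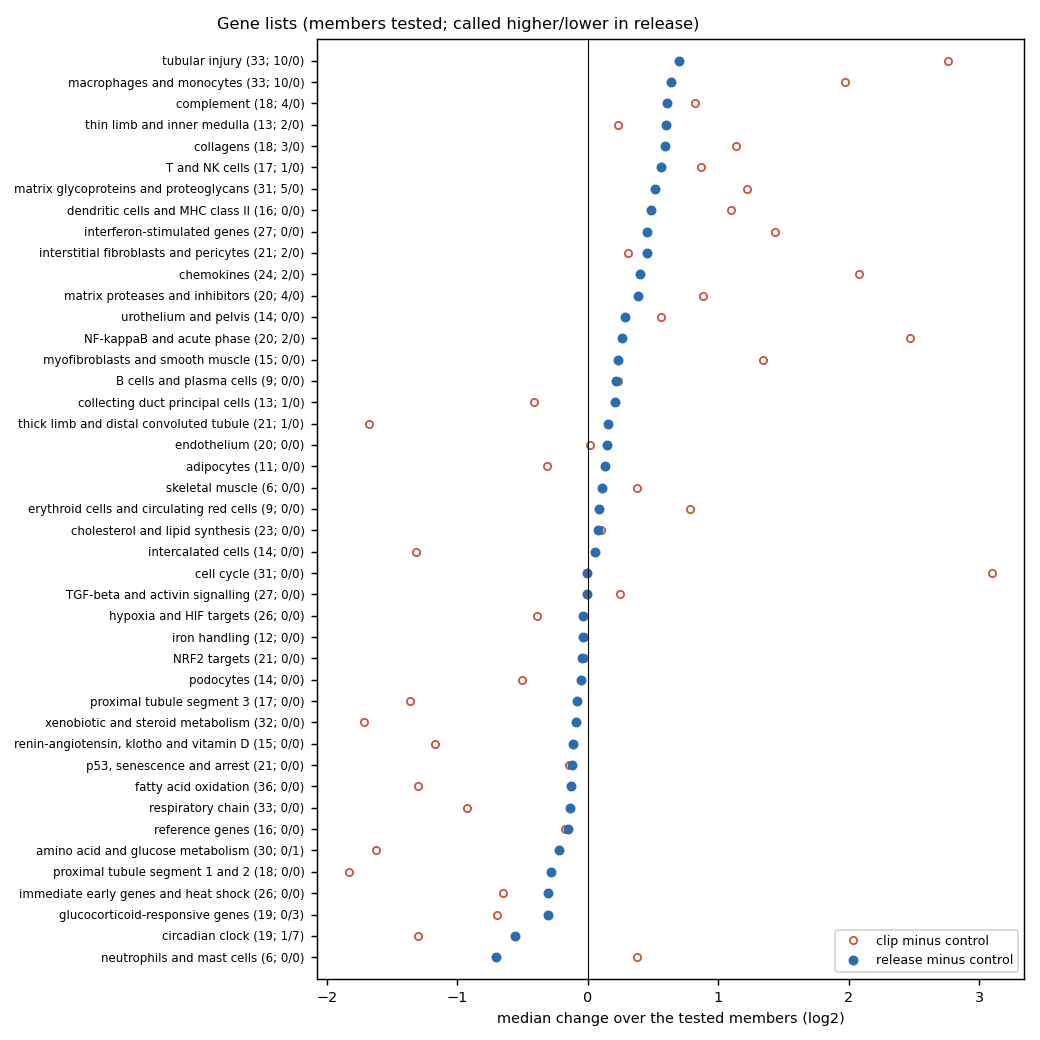
Median log2 difference from control over the tested members of each gene list, for release (filled) and clip (open); the numbers after each name are members tested and members called higher and lower in release. Injury, macrophage, complement and collagen lists lie between 0.59 and 0.70 in release, the circadian clock at -0.56, and the cell cycle list near 0 after 3.1 in clip; the neutrophil list holds 6 genes only.

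Clock genes stood out among the falls. Of 19 clock genes tested 7 fell, 1 rose and 11 did not pass, beside 0.372% of all genes called lower. The release kidneys lay below all control kidneys in 12 of them, against 13.6% of all genes. The list median was -0.56 in release and -1.30 in clip, and per kidney -0.61, -0.54 and -0.65 in release. The activator Arntl read -3.99, -3.84 and -2.92 in control and -1.03, -1.17 and -0.84 in release, 2.57 ± 0.27 higher (adjusted p = 0.0204), above its clip difference of 1.92. With normexp the difference was 1.34 and did not pass (adjusted p = 0.132). Clock, its partner, differed by -0.05 ± 0.13 and did not pass.

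The 7 falls were Ciart, Per1, Per2, Dbp, Bhlhe40, Cry2 and Usp2; Per3, Nr1d1 and Nr1d2, which also encode clock repressors and are named here after their values were seen, did not pass. Ciart, a repressor of the Clock and Bmal1 pair, read -2.35, -2.17 and -1.94 against -6.04, -5.28 and -4.25, 3.04 ± 0.38 lower (adjusted p = 0.0212), with 1 release array above background. With normexp the difference was -1.09 and did not pass (adjusted p = 0.468). Per1 read 4.12, 3.90 and 3.81 against 2.10, 2.47 and 2.68 and fell by 1.53 ± 0.20, and Dbp, a clock-driven transcription factor, read 6.17, 6.52 and 6.14 against 4.93, 4.95 and 4.58 and fell by 1.46 ± 0.17. All control levels were above all release levels in each. Per2 fell by 1.5 ± 0.27 on its brightest probe and by 0.62 on its other probe. The repressors Bhlhe40 (-1.05 ± 0.20) and Cry2 (-0.71 ± 0.13) and the deubiquitinase gene Usp2 (-0.97 ± 0.16) were the other 3. Noct, the rhythmic phosphatase nocturnin, which was not on the list, read 4.07, 3.46 and 3.74 against 0.96, 1.21 and 1.83. It was 5.36-fold lower (2.42 ± 0.24 on the log2 scale; adjusted p = 0.0204) and was the single gene that also passed with normexp, where its adjusted p was 0.0152.

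The E-box bears on this group because Clock and Bmal1 bind it. CACGTG, which reads the same on both strands, was searched in the 250 bases before each gene's start in RefSeq promoters of build GRCm38.p6, with no other motif searched. It stands in 6.02% of 32851 such windows, and 0.0609% hold 3 or more. Among 15 clock genes with a window 3 held it: Ciart, Per1 and Tef. The windows of Arntl, Clock, Cry2, Dbp, Usp2 and the other clock genes matched do not hold these letters, which says nothing of sites elsewhere. Among the called falls 12 of 39 genes with a window held it (30.8%), among the called rises 8 of 159 (5.03%), and among all tested genes with a window 9.72%. These shares are a description and no test was made. The falls holding it were Ciart, Per1, Fkbp5, Maff, Rcan1, Slc20a1, Tesmin, Ubxn10 and, from outside the naming rule and read off after the search, Coq10b, Nrarp, Rexo2 and Slc25a33. The windows of Ciart and Per1, the 2 called clock genes with a match, are shown 5′ to 3′ on the gene's strand with the E-box in capitals: Ciart at chr3:95882229-95882478 on the minus strand, with matches starting 116, 58 and 44 bases before the start, and Per1 at chr11:69098699-69098948 on the plus strand, with a match 166 bases before it.
Ciart: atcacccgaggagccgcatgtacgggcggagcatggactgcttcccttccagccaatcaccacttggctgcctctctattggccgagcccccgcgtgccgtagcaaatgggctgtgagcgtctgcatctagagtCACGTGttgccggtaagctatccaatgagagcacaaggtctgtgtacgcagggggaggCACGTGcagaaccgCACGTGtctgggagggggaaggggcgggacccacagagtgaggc
Per1: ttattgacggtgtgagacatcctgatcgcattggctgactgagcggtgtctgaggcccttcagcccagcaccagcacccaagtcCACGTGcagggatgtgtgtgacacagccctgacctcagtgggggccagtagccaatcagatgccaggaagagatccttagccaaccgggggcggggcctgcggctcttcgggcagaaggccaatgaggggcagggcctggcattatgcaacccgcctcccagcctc

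**Figure D4:**
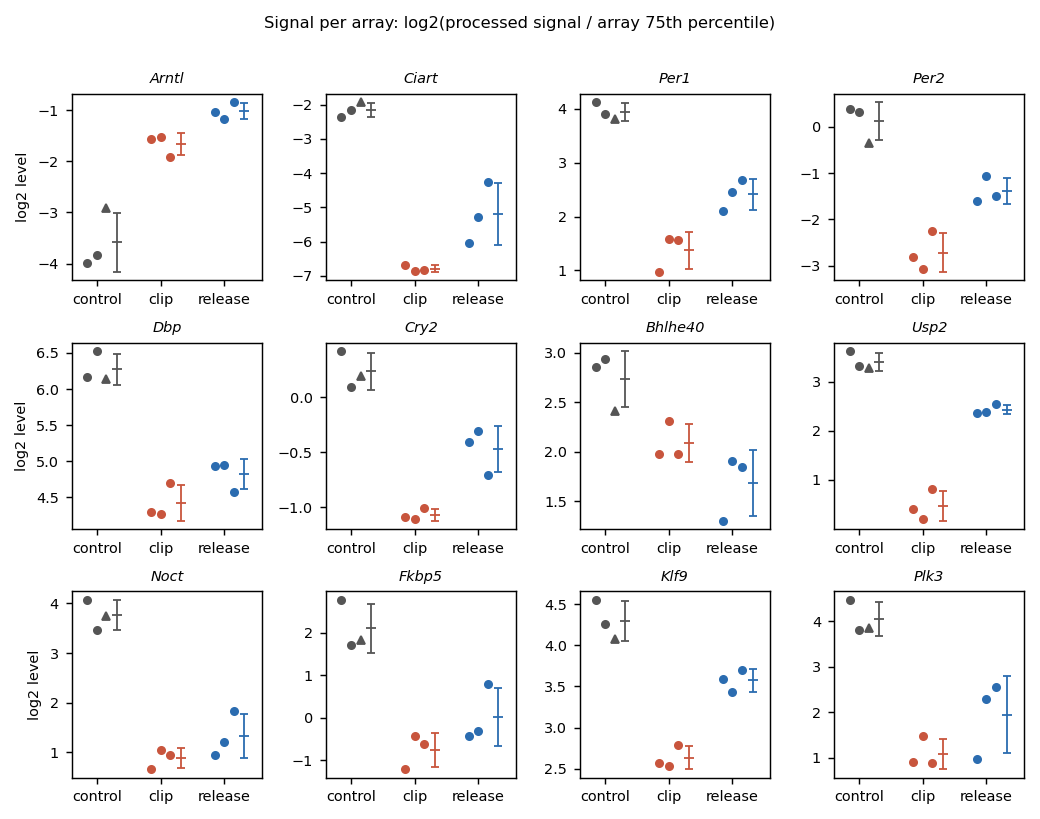
Log2 levels in each kidney of the 8 called clock genes and of Noct, Fkbp5, Klf9 and Plk3, with circles for sham, a triangle for the untreated kidney, and arm mean ± SD (n = 3). Arntl is higher in release and the other 11 are lower, with no overlap between the control and release arms in any panel.

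Some steroid-responsive genes fell too. Of 19 glucocorticoid-responsive genes 3 fell and 0 rose, beside 0.372% of all genes called lower. Release lay below control without overlap in 5 members and above it in 1, against 13.6% of all genes in each direction. The falls were Fkbp5, a chaperone of the glucocorticoid receptor, Per1, already counted among the clock falls, and the transcription factor Klf9 (-0.72 ± 0.14). Fkbp5 read 2.77, 1.71 and 1.84 against -0.43, -0.32 and 0.80, 2.09 ± 0.40 lower, and its other probes fell short of that at -0.82 and -1.01. The sham 1 kidney was the highest. Whether these differences go with the hour at which kidneys were taken was not tested, since the labels give none. With slide as a block 1 clock gene was higher and 9 were lower, beside 4.23% and 2.32% of all genes in that fit. Of the 8 clock calls, 0 passed without release 2 or without sham 2, 3 without sham 1, and 4 to 7 with any other kidney left out; of the 3 steroid-responsive calls 0 passed without release 2, sham 1 or sham 2, 1 without release 1, release 3 or any single clip kidney, and 2 without the untreated kidney.

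Other large falls were of mixed kind. Plk3, a stress-responsive kinase, read 4.47, 3.81 and 3.85 against 0.98, 2.30 and 2.56, 2.10 ± 0.40 lower, after 2.97 lower in clip. Release 1 was the lowest kidney. Ubxn10, a cilium-linked adaptor, fell by 2.04 ± 0.40 with 1 release array above background, and Slc25a25, a mitochondrial ATP carrier, by 1.45 ± 0.25, with other probes at -1.45 and -1.65. Kcnk5, a potassium channel of the tubule, read 3.27, 2.31 and 2.41 against 1.35, 1.32 and 1.20 and fell by 1.38 ± 0.24; its other probe read -1.44. With normexp Ubxn10 differed by -0.75. Maff, a small Maf factor, fell by 1.35 ± 0.21 and Dync1li1, a dynein chain, by 1.34 ± 0.25. None of these 6 falls passed without sham 2 or without release 2; without sham 1 Kcnk5 did, and without release 3 Maff did.

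Some genes were called in release with a clip difference of the other sign. Stmn1, a microtubule regulator of dividing cells, read 5.12, 4.80 and 5.0 in control, 5.72 to 5.85 in clip and 4.06, 4.08 and 4.21 in release, so that it lay 0.86 ± 0.11 below control (adjusted p = 0.0212) after 0.80 above it. Its other probe read -0.81. Tk1, thymidine kinase of the S phase, fell by 0.69 ± 0.11 after a clip difference of 1.36, and Mthfd1l, a mitochondrial folate enzyme, by 0.81 ± 0.10 after 1.11. Oip5, a centromere protein, was at least 1.59-fold lower after 1.72 in clip, and Ranbp17 fell on a dim probe, with its other probe at -0.25. With normexp Oip5 differed by -0.29 and Ranbp17 by -0.29. Mcm10, a replication factor, was 1.28 ± 0.14 lower in release and 0.75 lower in clip. Over the 31 cell cycle genes 0 passed, the median was -0.004 after 3.1 in clip, and 15 differences were positive. Ccne1, a cyclin of the S phase entry, differed by -0.57 ± 0.15 and the replication helicase gene Mcm6 by -0.81 ± 0.22 without passing. Of the falls named here none passed without release 2, Stmn1 alone without sham 2, and Stmn1 and Mcm10 without sham 1 or without release 3.

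In the opposite direction Trpm6, the magnesium channel of the distal convoluted tubule, read -3.03, -2.63 and -2.67 in control, -3.47 to -3.13 in clip and -1.91, -1.89 and -2.18 in release, 0.78 ± 0.15 above control. Aire, the autoimmune regulator, rose by 0.95 ± 0.19 after -2.00 in clip, and Syt13, a synaptotagmin, by 0.86 ± 0.16 after -0.97. Genes within 0.5 of control in clip were also called. Rcan1, a calcineurin inhibitor, read 4.03, 3.91 and 3.98 in control, 3.30 to 3.99 in clip and 2.46, 2.75 and 2.88 in release, 1.28 ± 0.19 lower, and its other probe read -1.26. Slc20a1, a phosphate carrier, fell by 0.81 ± 0.12, though its other probe read -0.21, and Tuft1 fell by 0.73 ± 0.12. Maff, above, had a clip difference of 0.32. On the side of rises, C1s1 was 0.88 ± 0.15 higher after 0.22 in clip (other probe 0.42), Shisa2, a modulator of Wnt and FGF receptors, 1.42 ± 0.28 higher after -0.43, and Tal2 1.27 ± 0.23 higher after 0.19. With normexp Trpm6 differed by 0.38, Syt13 by 0.56, Shisa2 by 0.60 and Tal2 by 0.38. Trpm6 did not pass with any single kidney left out, and none of the other genes named here passed without release 2, sham 1 or sham 2; without release 3 Maff alone did.

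The calls most often kept over 20 alternative settings were Ccl12 and Noct, each in 18, against a median of 7 over all called genes and none kept in all 20. Among the 20, sham kidneys alone as control and leaving out the untreated kidney are the same fit, and both are counted. Nlrp10 was kept in 17, Arntl and Stmn1 in 16, and Mcm10, Klrg2, Upk3bl, Neurl1a and Zfp287 in 15, as were other genes, Ciart, Dbp and Tnfaip2 among them; the naming rule broke that tie by p. Upk3bl, an uroplakin-like gene, was at least 3.11-fold higher, and its other probe rose by 1.71. Zfp287, a zinc finger gene, read -2.13, -2.09 and -2.09 in control and -1.33, -1.39 and -1.23 in release, 0.78 ± 0.08 higher and at its clip level (0.83). Klrg2 was at least 1.70-fold higher, and Neurl1a rose by 0.83 ± 0.09 with 1 control array above background. Nlrp10 rested on a probe not well above background in either arm, and no fold is given for it. With normexp the differences were 0.52 for Upk3bl, 0.44 for Zfp287, 0.19 for Klrg2 and 0.14 for Neurl1a.

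Of 110 genes of the nephron segments 4 were called, all higher (3.64%, beside 1.83% of all genes called and 1.46% called higher). Krt18 and Cryab among them are also counted among the tubular injury calls. Of 18 genes of proximal tubule segments 1 and 2, 0 passed; the median was -0.28 after -1.83 in clip, and 3 differences were positive. Slc34a1 read 7.02, 7.07 and 6.86 in control and 6.89, 6.72 and 6.49 in release, a difference of -0.28 ± 0.18 (adjusted p = 0.387), and Slc6a19, the neutral amino acid carrier, -0.64 ± 0.16 (adjusted p = 0.0735). Segment 3 had 0 of 17 with a median of -0.08, intercalated cells 0 of 14 with 0.06, and podocytes 0 of 14 with -0.06. The thick limb and distal convoluted tubule had 1 of 21, Trpm6, and a median of 0.15 after -1.67 in clip; Umod differed by 0.14 ± 0.12. The collecting duct had 1 of 13, Krt18. The thin limb and inner medulla list had a median of 0.60 with 2 of 13, Cryab and the endophilin gene Sh3gl3, the latter at 0.16 with normexp. Kap, an androgen-responsive proximal tubule gene, differed by 0.08 ± 0.21. With single kidneys left out Trpm6 did not pass at all, Krt18 passed only without sham 1, Cryab only without the untreated kidney and Sh3gl3 only without clip 3.

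Metabolic programmes that clipping had lowered gave 1 call. It was Prodh, the proline-degrading dehydrogenase, which read 5.87, 5.92 and 5.77 in control and 5.38, 5.20 and 5.13 in release, 0.62 ± 0.12 lower after 1.90 lower in clip; it did not pass with any single kidney left out. Among 30 genes of amino acid and glucose metabolism it was the only call, beside 0.372% of all genes called lower. The list median was -0.22, and 9 members lay below control without overlap (13.6% of all genes). With slide as a block Prodh and Cbs passed, beside 2.32% of all genes called lower in that fit. Fatty acid oxidation had 0 of 36 and a median of -0.13 after -1.30, with its regulator Ppara just outside the threshold (-0.68 ± 0.14; adjusted p = 0.0508). With slide as a block Ppara (adjusted p = 0.044) and the oxidase gene Acox3 (0.043) passed, both lower. The respiratory chain had 0 of 33 with -0.14, and xenobiotic and steroid metabolism 0 of 32 with -0.09. Cholesterol synthesis, NRF2 targets, hypoxia and HIF targets, iron handling, klotho and vitamin D, and p53 and senescence genes had no call, with medians from -0.12 to 0.08. Endothelial genes had 0 of 20 with a median of 0.15, immediate early and heat shock genes 0 of 26 with -0.30, and reference genes 0 of 16 with -0.15. Both probes of Epo were not well above background on any array, so erythropoietin was not tested.

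Marker lists of tissue that a dissected kidney can carry gave no call: 0 of 9 erythroid, 0 of 14 urothelial, 0 of 11 adipocyte, 0 of 4 adrenal and 0 of 6 skeletal muscle genes. Some varied within control. The summed erythroid signal was 12.5 to 69.1 in control and 29.9 to 57.3 in release, and the beta globin gene Hbb-bt read 5.43, 2.97 and 0.57 in control. The adrenal list summed to 0.37 to 1.54 in control and 0.37 to 0.38 in release. Urothelial genes summed to 41.1 to 44.6 in control and 43.1 to 50.3 in release, where the uroplakin gene Upk3b read -3.12, -5.02 and -5.03 against -2.84, -2.56 and -2.98 without passing. Of the 14 urothelial differences 12 were positive, with a median of 0.28. In 3 members release lay above control without overlap (13.6% of all genes). The called genes Upk3bl, Krt20 and Sprr2f are not on the urothelial list. The part of these tissues in the calls was not tested. With the sham kidneys alone as control 264 genes were higher and 79 lower, and 160 of the 259 rises and 37 of the 66 falls were among them.

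**Figure D5:**
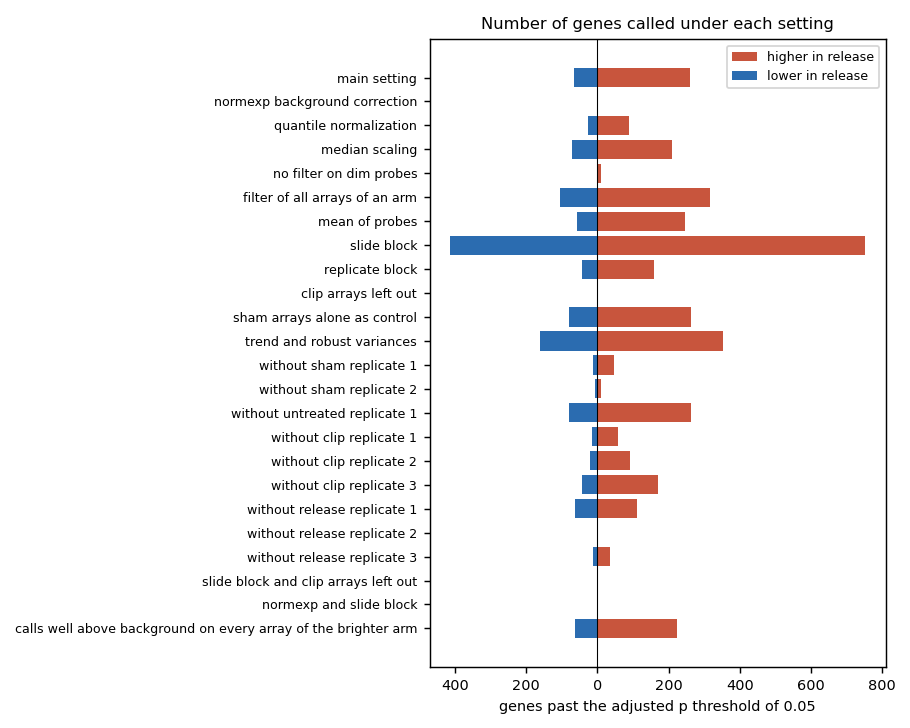
Genes past the adjusted p threshold of 0.05 under each setting, higher in release to the right and lower to the left of 0. The main setting gives 259 and 66, slide as a block 751 and 412, and normexp, leaving out all clip kidneys or leaving out release 2 at most 2 and 1.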

How the data were processed

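Per the labels, whole left kidney RNA (500 ng) of 9 mice was labelled with Cy3 and hybridized to single-colour Agilent mouse arrays. Deposited are scanner files with an intensity per spot. Feature Extraction 10.7.3.1, per the file headers, had subtracted background and detrended within each array; arrays had not been scaled to each other. The deposited files also hold other columns, flags for spots well above background or outlying. No coordinates of the arrays were used; per the file headers the grid names build mm9.

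The log2 of each intensity over the 75th percentile of its array was used. Of 45018 spots, 1639 control spots were dropped and 41174 probes remained. Accessions were matched to RefSeq symbols for 26690 probes and not for 14484. Probes well above background on at least 3 arrays numbered 23564; 21 were dropped because an array had outlier flags on all of their spots. Each gene was read from its brightest probe, which gave 17741 genes, 13017 with a symbol. No spot was saturated, and the number of arrays limits the precision. The labels number the samples but name no animals, so p values measure only the spread between these samples.

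limma 3.58.1 in R 4.3.3 took 3 arms and all 9 arrays, and its p values were Benjamini-Hochberg adjusted over all genes (threshold 0.05). Errors are the fit's standard errors with 6 residual and 2.37 prior degrees of freedom. Deviations from arm means correlated at 0.161 to 0.281 within slides and -0.239 to 0.00288 between slides, so slide was also fitted as a block. On simulated data with the design of release against control and 17741 genes, 64% of changes of 1 and 90% of changes of 2 (log2) were recovered, with 8 false calls among 162. The simulated noise was normal and independent between genes and arrays, with no slide effect and no shift of dim probes. These rates therefore need not hold for the measured arrays.

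The members, the 44 gene lists and the tests were chosen with earlier results of these data known. Named genes are the 12 largest rises and falls with clear signal, up to 2 rises and 2 falls per list (or the 2 smallest p values), the 10 calls kept in most alternatives, up to 5 per direction with an opposite clip change or one within 0.5, and a fixed set; other called list members were added after their values were seen, and 1 gene is not reported here. Alternatives were normexp (offset 50, on median spot and background signals, as the mean signal was not used here), quantile and median scaling, other filters, the mean of probes, slide and replicate blocks, other sets of arrays, and trend with robust variances; combinations with slide were added after seeing the data. The deposited value table of the whole series was not used here.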

Additional observations from a re-analysis of the deposited data

How the results depend on the processing

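Counts of genes higher and lower in release, 259 and 66 as reported, kept within 1.5 times with median scaling (210 and 70), the mean of probes (245 and 57), sham kidneys alone as control (264 and 79, holding 160 and 37 of the reported ones), and probes above background throughout the brighter arm (225 and 63). They were 315 and 105 with a filter on all arrays of an arm, 354 and 160 with trend and robust variances, 751 and 412 with a slide block, 88 and 27 after quantile normalization, and 11 and 1 with no filter on dim probes. Normexp, which also used the median in place of the processed signal, gave 0 and 1, leaving out the clip arrays 0 and 0, slide block with the clip arrays left out 0 and 0, and normexp with slide block 0 and 0. Of those 4 settings the unadjusted p was under 0.05 in 1341, 3384, 4621 and 1781 genes. With single arrays left out the rises ran from 2 to 264 and the falls from 0 to 79. With the replicate number as a block the counts were 160 and 43; the numbers do not pair the arrays, as same-numbered arrays correlated at -0.209 to 0.269. Of the 85 named calls, 82 passed with a slide block, 79 with median scaling, 45 with quantile normalization, 36 with the replicate block, 4 with no filter and 1 with normexp, all with the same sign; the mean of probes turned Col5a1 to -0.0095 and Fbn1 to -0.25. Uncalled genes that changed sign were Kap (0.08 as reported, -0.086 with sham arrays alone, -0.099 to 0.25 with single arrays left out), Mb (-0.11 with normexp, with or without slide block, and -0.070 with quantile normalization) and Pparg (-0.23 to 0.057 with single arrays left out). Causes were not tested. Probes near background limit what can be said of dim genes, of which 45 rises had no control array above it.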
